A study of Mus musculus with 8 samples.

Results

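Isolated shared regions are stretches of accessible chromatin that were found in every library of NIH3T3 fibroblasts and stood alone, with no other accessible region nearby. They were chosen by merging the peaks of 4 ATAC-seq libraries into regions, keeping the autosomal regions with a peak in all 4 libraries, and requiring that no other merged region, in whichever libraries it was called, lay within 100 kb of either edge. This left 544 regions out of 45915 merged regions, or 1.99% of the 27302 shared autosomal regions. They covered 0.414 Mb, against 20.3 Mb for all shared regions. The choice used the peak calls themselves, so presence and spacing are given below as descriptions and were not tested.

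Accessible sites that lie far from other accessible sites are usually found in gene-poor chromatin, much of which replicates late and contacts the nuclear lamina. Such a site can be the promoter of a lone gene, an enhancer acting over a long distance, or a site bound by CTCF, the protein that anchors chromatin loops. Sequence that is present in more copies in the cell than in the assembly, such as satellite, ribosomal or mitochondria-like DNA, can also gather reads at one place without a change in accessibility.

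The cells were NIH3T3, an immortalised fibroblast line from mouse embryos, grown in medium with newborn calf serum and kept for 24 h on G128 or on G2. The study concerned hydrogels of polyvinyl alcohol and gelatin. The labels leave the names G128 and G2 unexplained. Nothing states whether replicates were separate cultures, so that p-values measure only the spread between these libraries, which may be technical. Each group held 2 ATAC-seq libraries, in which the Tn5 transposase cuts exposed DNA and reads pile up over accessible sites. The height of a region was its summit over the background, that is the number of overlapping intervals at the highest peak divided by the mean background of that library. The background mean, which tracks depth, was 1.05 and 1.41 intervals per bp in G128 replicates 1 and 2, and 1.10 and 1.37 in G2 replicates 1 and 2, so that replicate 1 was the shallower library in both groups. The weakest listed peaks stood 18.2 to 19.0 times above the background.

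The isolated regions were surrounded by wide empty stretches. Their nearest region lay at a median of 159.8 kb (quartiles 122.2 and 269.5 kb), where other shared autosomal regions had a median of 3.58 kb. In 205 of 544 regions (37.7%) no other region lay within 200 kb of either edge, in 60 none within 500 kb and in 21 none within 1 Mb. For 3 isolated regions there was no region before them on the chromosome and for 3 none after, so their gap was taken on 1 side. The median isolated region had 7 other regions within 500 kb on either side, against 40 for other shared regions, and 60 isolated regions had none. At the limit of the choice, the 3 regions just inside had gaps of 100582, 100604 and 100719 bp, and the 3 just outside had gaps of 99764, 99564 and 99448 bp. Those inside, on chromosomes 9, 6 and 19, had summits over the background of 120.5, 179.3 and 38.9 in the first G128 library, and those outside, on chromosomes 8, 6 and 4, had 45.5, 21.8 and 63.5.

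The region with the largest gap was narrow and of modest height. It lay at chr15:47371510-47371705 (196 bp), 2707 kb from its nearest neighbour, and stood 41.7 and 41.8 times above the background on G128 (replicates 1 and 2) and 40.9 and 35.1 times on G2. Both G2 values lay below both G128 values, although most shared regions stood higher on G2. The second, chr1:104524734-104524952, had a gap of 2396 kb and summits of 67.3 and 75.1 times on G128 and 85.5 and 78.9 times on G2. The third, chr6:79767896-79768396, was among the strongest of all shared regions and is described below. The others of the 5 largest gaps were chr14:84842805-84843487, with 54.1, 71.6, 91.0 and 81.8 times in the 4 libraries in the order above, and chr17:59152430-59152862, with 27.5, 48.2, 55.5 and 52.6 times. Wide spacing therefore came with weak, middling and very strong summits alike.

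Isolation was spread unevenly over the chromosomes. Chromosome 13 had 43 isolated regions, or 4.61 per 100 of its shared regions, and chromosome 10 had 45, or 3.37 per 100. The rate was lowest at 0.776 per 100 on chromosome 11 (19 regions), followed by 0.829 per 100 on chromosome 17 (12 regions). Chromosomes 11 and 17 held 32.5 and 24.9 merged regions per Mb, and chromosomes 13 and 10 held 14.1 and 17.4 per Mb. Density did not order the chromosomes alone, since chromosome 14, the sparsest at 11.8 regions per Mb, had 2.72 isolated per 100 shared regions. Isolated regions of any presence pattern often followed each other. Of the 544 regions, 284 had an isolated region as a direct neighbour, and the longest series held 9 isolated regions, 5 of them shared, over 7.11 Mb of chromosome 10 from 99949382 to 107061511.

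**Figure D1:**
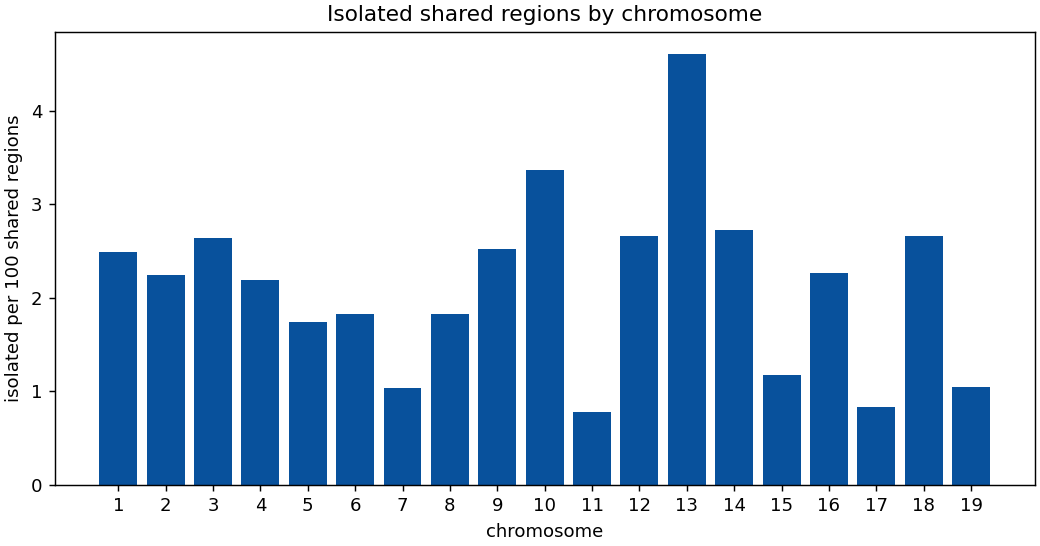
Isolated shared regions per 100 shared regions (vertical axis) on each autosome (horizontal axis). Chromosome 13 is highest at 4.61 and chromosome 11 lowest at 0.776 per 100.

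Presence and spacing together chose the regions, so the shares of each presence pattern are given as a description, over all isolated autosomal regions and not the shared ones alone. Of 1034 isolated autosomal regions, the 544 shared ones made up 52.6%, and 60.6% of the 44123 autosomal regions with a neighbour within 100 kb were shared. A single library held the peak in 214 isolated regions (20.7%) and in 15.3% of those with a neighbour. Both G2 libraries and no G128 library held 109 isolated regions (10.5%), and both G128 libraries alone held 3 (0.290%). Among regions with a neighbour these shares were 8.31% and 0.369%. The peak lists were longer on G2, with 42358 and 41585 peaks, than on G128, with 32540 and 37695. The part of list length in these shares was not tested. Isolated regions with a peak in 1, 2 and 3 libraries had median widths of 151.5, 204.5 and 235.5 bp and a median highest summit of 22.6, 25.6 and 30.02 times the background, close to the weakest listed peaks. Those in all 4 libraries had 565 bp and 74.6 times.

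The median isolated region stood about as high as the median of the other shared regions. The median summit of the 544 regions over the background was 52.2 and 57.4 on G128 (replicates 1 and 2) and 69.1 and 69.8 on G2. The other shared autosomal regions had medians of 50.3, 58.1, 67.3 and 67.9. The log2 ratio of the medians was 0.03 ± 0.03 (SD, n = 4 libraries), with 3 libraries above 0 and G128 replicate 2 at -0.018. It was -0.030 without the regions of fixed edges described below, and -0.0017 when the deposited signal took the place of the summit. As a difference of mean log2 values it was 0.085, and with gap limits of 50 and 200 kb it was 0.088 and 0.0049. Sign and size thus varied with the setting, and at 100 kb the log2 ratio of median summits did not exceed the spread between libraries. The upper quartile of isolated regions was 1.12 to 1.20 times that of other shared regions over the 4 libraries, and the lower quartile 0.918 to 0.971 times. Without the regions of fixed edges the upper quartile was 1.04 to 1.11 times as high. A high upper quartile was also seen at closer spacing. Shared regions with gaps of 25 to 50 kb had upper quartiles of 111.0, 126.1, 157.4 and 160.7 times the background in the 4 libraries, and the isolated regions had 108.4, 124.2, 158.5 and 160.0 times. In all 4 libraries, 10 isolated regions (1.84%) reached 400 times the background, against 123 (0.460%) of the other shared regions. Of these 10, 9 had gaps above 200 kb (4.39% of 205 regions), and 1 had a gap of 100 to 200 kb (0.295% of 339), so the higher share was not seen in the larger class of isolated regions.

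**Figure D2:**
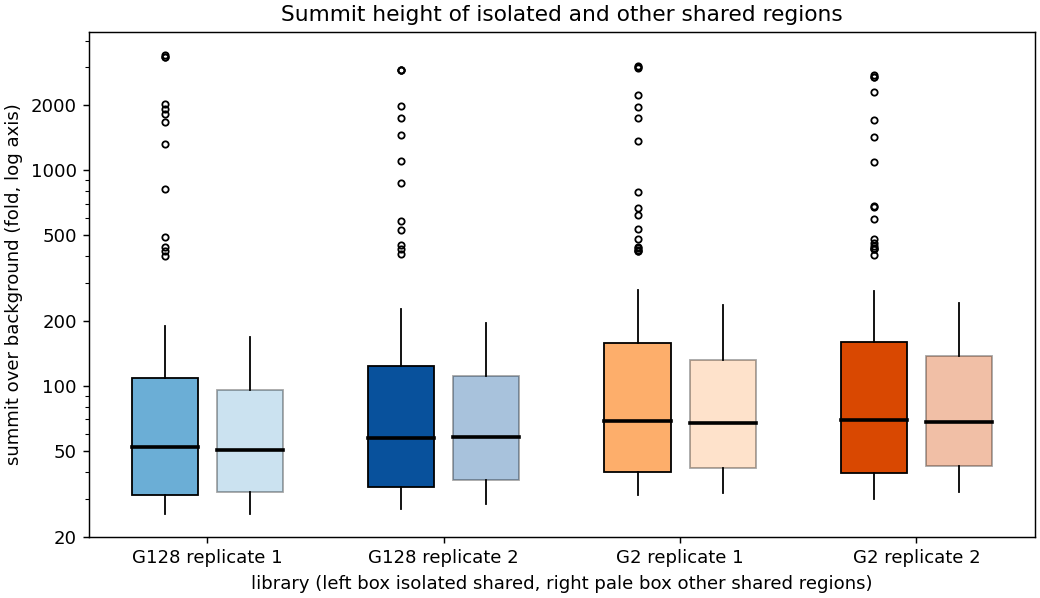
Summit over the background (vertical log axis) in each library (horizontal axis) for 544 isolated shared regions (left, saturated box) and 26758 other shared autosomal regions (right, pale box). Boxes give the quartiles and median, lines the 10th and 90th percentiles, and open circles the isolated regions at 400 times or more. The medians lie close together in each library (52.2 and 50.3 times in G128 replicate 1), and single isolated regions reach 3422 times.

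Isolated regions were also slightly narrower. Their median width was 565 bp (quartiles 352.5 and 891 bp), against 627 bp (393 and 957 bp) for other shared regions, a ratio of 0.901. The widest peak of a region gave ratios of 0.909 to 0.929 in the 4 libraries, so the direction was the same in each. Width did not fall steadily with spacing. Median width was 655 bp at gaps below 1 kb, 599 bp at 1 to 5 kb, 598 bp at 5 to 10 kb, 656 bp at 25 to 50 kb, 573 bp at 100 to 200 kb and 531 bp above 200 kb. Median summits were highest at 25 to 50 kb, with 55.0, 63.1, 75.5 and 76.0 times the background, and stood at 52.2, 55.3, 69.1 and 67.9 times above 200 kb. The choice of 100 kb therefore did not fall on a step in height. Most isolated regions, 465 of 544 (85.5%), had exactly 1 peak in each library, as did 83.8% of the other shared regions. The position of the summit differed by a median of 39 bp between the libraries, against 40 bp elsewhere.

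**Figure D3:**
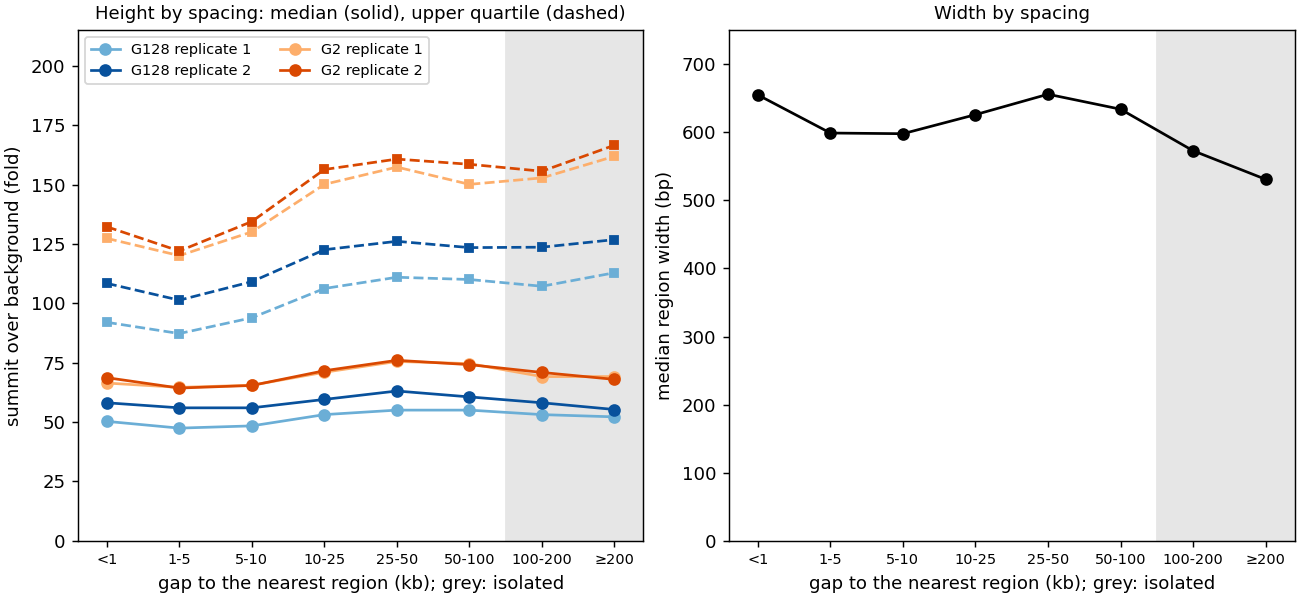
Left, median (solid) and upper quartile (dashed) of the summit over the background (vertical axis) by the gap to the nearest merged region (horizontal axis, kb) in each library. Right, median width of the merged regions (vertical axis, bp). Grey marks the isolated regions; width falls to 531 bp at the widest spacing, while median height there is close to that of crowded regions.

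The strongest isolated regions stood far above the median isolated region. Ranked by their lowest place among shared autosomal regions over the 4 libraries, the first 3 were chr2:22442766-22446104 (3339 bp), chr12:98299586-98300055 (470 bp) and chr4:79648184-79651160 (2977 bp). The region on chromosome 2 stood 3372 and 2917 times above the background on G128 and 3047 and 2721 times on G2. The region on chromosome 12 had summits of 3365, 2911, 2996 and 2761 times, and that on chromosome 4 of 3422, 2932, 3014 and 2704 times, in the same order. In each library these 3 summits lay within 0.730 to 2.11% of each other, although the regions differ in width and lie on different chromosomes. This height was not confined to isolated regions. The highest summit of the other shared autosomal regions was 3432, 2923, 3009 and 2732 times the background in the 4 libraries, in the same order. All 3 isolated regions were highest in G128 replicate 1 and lowest in G2 replicate 2, and the shallower library stood higher in both groups.

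The regions ranked 4 to 7 had gaps above 1 Mb, and those ranked 8 to 10 had gaps of 220 kb, 226 kb and 117 kb, nearer to the median isolated region. The region chr6:9839845-9840247 (403 bp, gap 1087 kb) reached 2040 and 1748 times on G128 and 1962 and 1707 times on G2. The region chr6:79767896-79768396 (501 bp, gap 2105 kb) reached 1918, 1460, 1757 and 1425 times, and chr5:60433908-60434382 (475 bp, gap 1465 kb) reached 1673, 1100, 1364 and 1089 times. In both, the groups overlapped, and replicate 1 stood above replicate 2 in each group. The 5941 bp region at chr17:39979887-39985827 had another order, with 1822 and 1982 times on G128 and 2240 and 2303 times on G2. The first region of chromosome 9, chr9:2999951-3038445, was the widest isolated region with 38495 bp, and its summits were 1323 and 875 times on G128 and 791 and 684 times on G2. The last of the 10, chr4:101319389-101320839 and chr1:7078299-7079634, were lower in G128 (442 and 580 times, and 368 and 451 times) than in G2 (669 and 675 times, and 624 and 593 times), as most shared regions were.

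**Figure D4:**
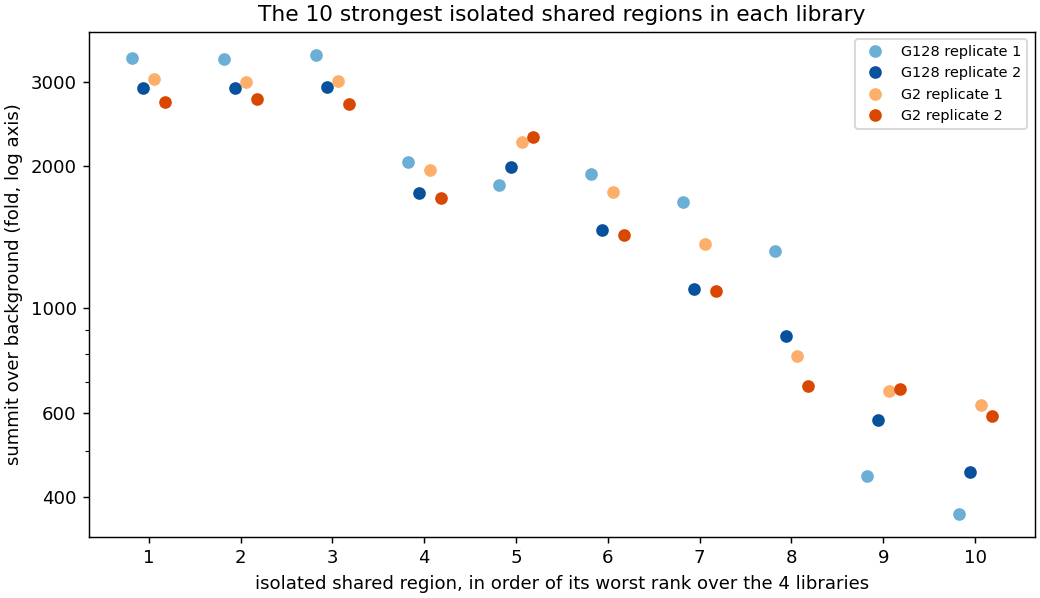
Summit over the background (vertical log axis) of the 10 strongest isolated shared regions (horizontal axis, in order of their worst rank) in each of the 4 libraries. Regions 1 to 3 lie between 2704 and 3422 times in every library, and only regions 5, 9 and 10 have both G2 points above both G128 points.

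The edges of most of these regions hardly moved between libraries. For each region the start and the end were compared over the 4 libraries, and the larger of the 2 ranges had a median of 101 bp in isolated regions and 125 bp in other shared regions. In the regions ranked 1 to 8 it was 0 to 6 bp, and in those ranked 9 and 10 it was 59 and 105 bp. A range of at most 10 bp, a limit chosen after these values were seen, was met by 20 of 544 isolated regions (3.68%) and by 398 of 26758 other shared regions (1.49%). Of the 10 isolated regions at or above 400 times the background in all libraries, 9 had such fixed edges, and of the 123 other shared regions at that height 13 had. Fixed edges were most frequent at gaps above 200 kb, with 6.83% of 205 regions, against 1.77% at 100 to 200 kb and 1.03% below 1 kb. The median width was 472.5 bp in the 20 isolated regions with fixed edges and 214 bp in the 398 others. Whether these places hold sequence with many copies in the cell was not tested, since no mm9 sequence was used here.

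Between the cultures, the isolated regions as a whole differed by about as much as the other shared regions did. Without scaling, their median summit was 54.8 ± 3.69 times the background on G128 and 69.5 ± 0.454 times on G2 (SD, n = 2 each), a ratio of 1.27. An exact permutation test (two-sided) over the libraries returned p = 0.333, and no lower p is possible with 2 against 2. Taken region by region, this general shift had a median of 0.37 (log2) in isolated regions and 0.34 in other shared regions. After each library had been centred on its median over all shared regions, the median difference of G2 minus G128 was 0.03 for isolated regions and 0.01 for the others (log2). The exact permutation test of the former over the 6 assignments gave p = 0.667. When the medians of the libraries were compared in place of single regions, the centred difference of isolated regions was 0.013 (log2). The centred difference was above 0 in 306 isolated regions (56.3%) and in 52.0% of the others. Both G2 libraries stood above both G128 libraries in 143 isolated regions (26.3%, against 23.8% of all 27768 shared regions) and below them in 95 (17.5%, against 21.9%).

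**Figure D5:**
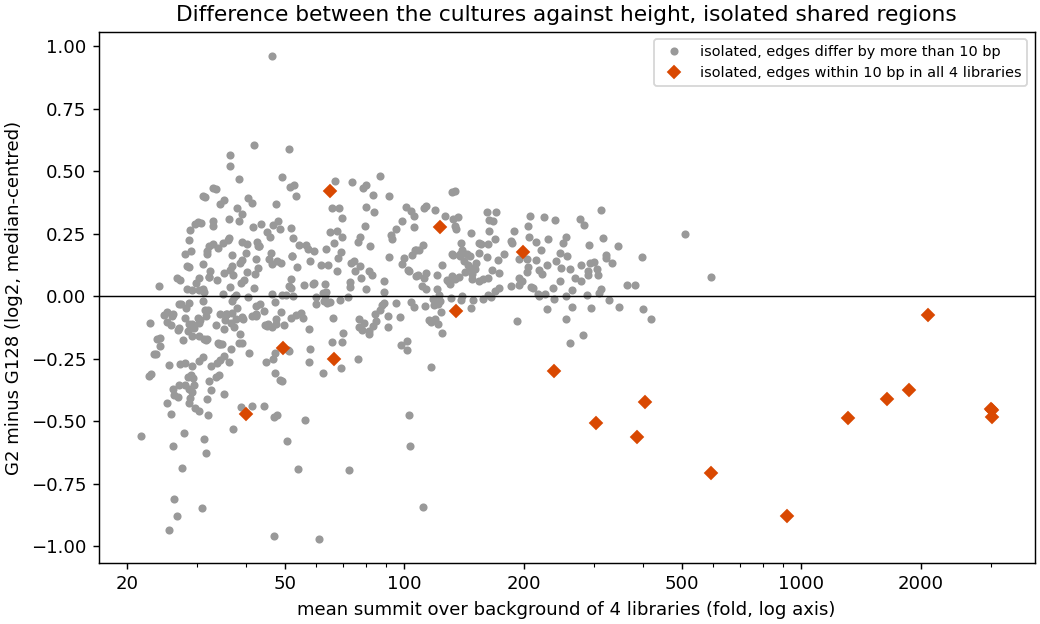
Difference G2 minus G128 of the median-centred log2 summit (vertical axis) against the mean summit over the background (horizontal log axis) for 544 isolated shared regions. Orange diamonds are the 20 regions whose edges agree within 10 bp in all libraries; the 9 of them at 400 times or more in all libraries lie below 0.

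No isolated region passed the test of single regions as it was set up. With limma on the centred log2 summits and Benjamini-Hochberg adjustment over all 27768 shared regions, 0 of 544 isolated regions and 0 of all regions (0%) had an adjusted p below 0.05. At an unadjusted p below 0.05, 34 isolated regions were higher on G2 and 43 lower, or 6.25 and 7.90%, against 5.57 and 8.67% of all regions. This fit draws the spread of every region towards a common value. When limma let the spread follow the height of the region (limma-trend), 1 isolated region was higher and 19 were lower on G2, or 0.184 and 3.49%, against 0.601 and 0.864% of all shared regions (167 and 240). Without median centring, where the general shift remains in the values, limma called 135 isolated regions higher and 7 lower. These were 24.8 and 1.29%, against 21.1 and 0.245% of all regions. With the replicate number as a block limma called 4 higher and 19 lower, or 0.735 and 3.49%, against 0.987 and 2.36% of all regions.

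The region with the smallest p higher on G2 was chr5:145400572-145400893 (322 bp). It stood 23.7 and 30.5 times above the background on G128 and 60.9 and 70.9 times on G2, without overlap. The centred difference was 0.96 ± 0.15 (log2, SE), with a limma adjusted p of 0.0741 and of 0.00414 with limma-trend. The next were chr1:40643581-40644078, with 31.3 and 39.7 times on G128 and 62.8 and 70.9 times on G2, and chr2:174499577-174499960, with 24.7 and 26.2 times against 51.9 and 43.1 times. Their limma adjusted p-values were 0.131 and 0.161. Neither passed with limma-trend (0.0883 and 0.156), and both passed with the replicate number as a block (0.0286 and 0.0396).

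Lower on G2, the smallest p-values belonged to weak regions. The region chr10:52248518-52248914 stood 29.4 and 34.0 times above the background on G128 and 23.7 and 19.7 times on G2, a centred difference of -0.88 ± 0.15 (log2, SE; limma adjusted p 0.0741, limma-trend 0.0255). The region chr6:14145463-14145782 had 27.5 and 34.0 times against 22.7 and 21.2 times, and chr8:104548534-104548648 had 34.1 and 27.6 times against 20.01 and 20.46 times, with limma adjusted p-values of 0.0741 and 0.0873. Both passed with limma-trend (0.0403 and 0.0214), and all 3 lower regions passed with limma and the replicate block (0.000606, 0.00162 and 0.000313). The G2 summits of these regions were near the weakest listed peak, so a lower value would have left the region out of the shared class. The 3 weakest isolated regions, on chromosomes 13, 11 and 4, had mean summits of at least 21.8 times, and their groups overlapped in 2 of 3.

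Fixed edges and the direction of the difference went together in the strong isolated regions, and not in these alone. At any height, 17 of 20 isolated and 319 of 398 other shared regions with fixed edges had a centred difference below 0. Their medians were -0.42 and -0.18 (log2). Where edges differed by more than 10 bp, 221 of 524 isolated and 12529 of 26360 other shared regions lay below 0. Of the 13 isolated regions with fixed edges that reached 200 times the background in all libraries, all 13 had a centred difference below 0, with a median of -0.45 and a range of -0.88 to -0.074 (log2). In 9 of them both G2 libraries lay below both G128 libraries, as in 21.9% of all 27768 shared regions. Limma-trend called 9 lower, against 0.864% of all, but these were not the same 9. The regions chr5:60433908-60434382 and chr6:79767896-79768396 were called although their groups overlapped. The groups did not overlap in chr17:39979887-39985827 and chr12:79451806-79452211, which were not called. The 38 isolated regions at this height with moving edges had a median of 0.08, and 9 lay below 0. The same direction was frequent in other shared regions with fixed edges. Of the 32 such regions at 200 times or more, 23 lay below 0, with a median of -0.18, and limma-trend called 10 lower. At 400 times or more, 12 of 13 lay below 0, with a median of -0.45, and 8 were called lower. Whether the difference of fixed-edge regions depends on isolation was not tested. Without centring, the median of the 13 isolated regions was -0.12, while the 38 stood 0.42 higher on G2. These 13 isolated regions include chr6:103598999-103599331 (333 bp, gap 1059 kb), named after its values were seen, with 823 and 529 times on G128 and 537 and 482 times on G2. The fixed-edge regions made up 9 of the 19 isolated regions that limma-trend called lower. With all fixed-edge regions left out, limma-trend called 10 of 524 isolated regions lower and 1 higher, against 228 and 180 of all 27348 regions. The number called lower changed with the library left out, among isolated regions and among all shared regions. Counts for isolated regions are given only with the dependence on the processing, since such a fit leaves 1 library in a group.

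Over the 20 isolated regions with fixed edges, the median centred log2 summit was 3.18 and 2.70 in the G128 libraries, replicate 1 first, and 2.52 and 2.37 in the G2 libraries. The group means were 2.94 ± 0.33 and 2.45 ± 0.10 (SD, n = 2 each), a difference of -0.49 with an exact permutation p of 0.333. Both G2 libraries lay below both G128 libraries. The 2 G128 libraries differed from each other by nearly as much as the groups did, and depth moved with these values within each group. The part of depth in the result was not tested.

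The remaining wide isolated region, chr15:91737034-91740810 (3777 bp), was weak for its width. Its summits were 46.5 and 51.0 times the background on G128 and 52.8 and 44.6 times on G2. After centring both G2 libraries lay below both G128 libraries, with a difference of -0.34 (log2) and a limma adjusted p of 0.351.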

How the data were processed

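ATAC-seq peak lists of 4 libraries were used, 1 list per library, and the RNA libraries were left out. The submitters' processing notes name Bowtie2 2.2.5, SAMtools 1.7 and Genrich 0.5 on mm9. Settings, duplicate handling and the shift for Tn5 are not given in the sources used here. As deposited, each list holds a score, a signal, −log10 p and q values and the offset of the summit. Coordinates are those of the files, from 1. Each library's background mean and whole-number summit pileups were recovered from the steps of the deposited −log10 p-values, which are spaced as whole numbers against a log-normal background (all within 0.00179 of a whole number). The deposited score was not used, and the deposited signal served as an alternative measure.

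Peaks sharing at least 1 bp were merged. Differences were tested with limma 3.58.1 in R 4.3.3 on all 27768 shared regions, with an adjusted p threshold of 0.05. Other values used Python 3.11.15, pandas 2.3.3, numpy 2.4.6 and scipy 1.17.1. The scripts were tested on simulated data. Regions named were the 10 strongest by worst rank, the 5 with the largest gap, those next to the 100 kb limit, the 3 smallest p-values in each direction where none was called, and the 3 weakest and widest. The members and lists were chosen with earlier results of these data known. Gene positions, gene lists, marker loci and motifs were not used here, because the annotation and sequences at hand are of another build than mm9.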

Additional observations from a re-analysis of the deposited data

How the results depend on the processing

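The number of isolated shared regions was 1564 at a gap of 50 kb and 205 at 200 kb. It was 822 with peaks whose p was at least 10 times below the weakest of their list, of which 371 overlapped one of the 544 regions, since dropping peaks removes neighbours. Leaving out each library gave 586 to 646, and at least 521 of these overlapped one of the 544. The log2 ratio of median summits to other shared regions was -0.0017 with the deposited signal and 0.085 as a mean of log2 values. It was 0.088 at 50 kb, 0.0049 at 200 kb, -0.030 without fixed-edge regions, and 0.020 to 0.043 with each library left out. The width ratio was 0.919 for the widest peak, 0.978 at 50 kb and 0.847 at 200 kb. Against 0 isolated regions called higher and 0 lower on G2, limma without scaling gave 135 and 7, limma-trend 1 and 19, and the fit with the replicate block 4 and 19. With each library left out in turn it was 0 higher and 0 to 3 lower, the 3 without G128 replicate 2. Limma-trend without fixed-edge regions gave 1 and 10, and with each library left out 0 to 15 and 6 to 29. The 15 came without G128 replicate 1, and 0 without G2 replicate 2. With 1 library left in a group, it is assumed to vary like the other group. The cause of these changes was not tested. The median difference was above 0 in all 10 alternatives, from 0.021 to 0.37 (log2), and all of them reuse the same 4 libraries. The 0.37 came without scaling, where the other shared regions had 0.34. The other shared regions were above 0 in every limma setting too, by as little as 0.0016. With the pairing by replicate number the difference of isolated regions was 0.024 within number 1 and 0.035 within number 2. The correlation of deviations between same-numbered libraries was 0.0028 over all shared regions and 0.118 over the 544 isolated ones (across regions, which are not replicates). The labels do not say that a number marks a shared culture or batch, and there are only 2 numbers, so they were not taken as pairs. Limits at 10 bp for edges and all limma-trend settings beyond the full fit were chosen after the data were seen. The height limits of 200 and 400 times were not part of the plan. Promoter distances were not run. Weak regions are limited by the caller's threshold, since a summit below it is not listed. In the shallower libraries the lowest listed value was 19.0 times (G128) and 18.2 times (G2). In the deeper libraries it was 18.4 times (G128) and 18.3 times (G2). Whether this limit depends on depth was not tested.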
